A study of Homo sapiens with 24 samples.

Results

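FOXM1, MYBL2 and 8 subunits of the DREAM complex (LIN9, LIN37, LIN52, LIN54, E2F4, RBL1, RBL2 and TFDP1) were followed in cells depleted of the histone demethylase KDM5C, of the transcription factor YY1, or of both. The genes were chosen by symbol, and all 10 were found among the 60675 genes of the count tables. The 24 RNA-seq libraries came from ACHN and HK2 cells, with 3 libraries in each of 4 groups per line. The groups carried a control hairpin (shNC), a hairpin against KDM5C (shKDM5C), a hairpin against YY1 (shYY1), or both hairpins (Dsh). All groups, controls included, were infected with lentiviral hairpin vectors and kept as selected pools. Dsh cells were YY1-depleted cells infected a second time with a GFP-labelled KDM5C hairpin. The paper lists a control hairpin vector with EGFP but does not say whether the other groups received a second vector, so this step may differ between the groups. ACHN is a human renal cancer line that the labels call ccRCC, and HK2 is a human kidney tubule line immortalised with the papillomavirus genes E6 and E7, whose products include a binder of the RB family. The labels number the libraries of a group as repeats and do not say whether they were separate cultures, so p-values measure the spread between these libraries, which may be technical.

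The DREAM complex joins a repressive E2F (E2F4 with its partner TFDP1), an RB-like pocket protein (RBL1 or RBL2) and the MuvB core, whose subunits include LIN9, LIN37, LIN52 and LIN54, and it holds cell cycle genes silent in resting or arrested cells. When cells enter the cycle, the pocket protein and E2F leave, and the MuvB core binds MYBL2 and then FOXM1, which activate the genes of G2 and mitosis. MYBL2 and RBL1 are themselves E2F target genes, and CDKN1A, an inhibitor of cyclin-dependent kinases, favours the repressive form of the complex.

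Between 15926561 and 24272298 read pairs per library were counted on genes. Levels are given as CPM, the counts scaled to a common library size with edgeR's TMM factors, computed within each line, so that levels set across the lines come from separate scalings. KDM5C was lower in every shKDM5C and Dsh library than in any shNC library of the same line, and so was YY1 in every shYY1 and Dsh library. KDM5C was 42.1 ± 1.22 CPM in ACHN shKDM5C and 69.5 ± 0.539 CPM in ACHN shNC cells (SD, n = 3). In ACHN Dsh libraries KDM5C was at 39.7 to 40.7 CPM. In HK2 cells KDM5C was at 37.4, 68.4 and 67.4 CPM in shKDM5C and 65.8 to 72.2 CPM in Dsh libraries (shNC 191 to 197). Relative to shNC, both targets were thus reduced further in HK2 than in ACHN cells. YY1 was less depleted in Dsh than in shYY1 libraries. It was at 89.6 to 103 against 71.9 to 78.4 CPM in ACHN cells (shNC 133 to 141). In HK2 cells it was at 73.1 to 76.0 against 62.1 to 68.7 CPM (shNC 203 to 215). KDM5C was higher in shYY1 than in shNC libraries, at 87.5 to 91.9 against 68.9 to 69.9 CPM in ACHN and 233 to 260 against 191 to 197 CPM in HK2 cells. One library stood apart. In HK2 shKDM5C, replicate 1 differed from replicates 2 and 3 with a chi-square of 129 and 123 per gene, against 1.94 to 6.97 in all pairs of the other groups. The counts of members called in HK2 comparisons that include it are given with and without it. Renal epithelial genes were expressed in shNC cells of both lines (PAX8 at 535 CPM in ACHN and 257 CPM in HK2 cells), whereas the proximal tubule markers LRP2, CUBN, AQP1, SLC34A1 and ANPEP were all at 0.753 CPM or less and GGT1 was at 69.5 and 203 CPM. CA9, a marker of clear cell renal carcinoma, was at 0.123 CPM in ACHN shNC cells. The leukocyte gene PTPRC and the endothelial gene PECAM1 were at 0.687 CPM or less in both.

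The promoters of MYBL2, RBL1 and LIN52 are shown first, because these genes and FOXM1 were the members called lower in Dsh than in shNC cells in both lines. The windows run from 250 bases before to 50 bases after the start site in RefSeq (GRCh38.p14), and 9 of the 10 members had one or more windows there, all but FOXM1. Capitals mark matches on either strand to E2F-type letters (TTGGCG or TTCGCG or TTCCCG or TTGCCG), to the cell cycle homology region bound by LIN54 (TTTGAA or TTCGAA), to the CCAAT box and to YY1-type letters (AAGATGGC). The MYBL2 window lies on the plus strand at chr20:43666864-43667163, that of RBL1 on the minus strand at chr20:37095948-37096247, and that of LIN52 on the plus strand at chr14:74084706-74085005.
MYBL2: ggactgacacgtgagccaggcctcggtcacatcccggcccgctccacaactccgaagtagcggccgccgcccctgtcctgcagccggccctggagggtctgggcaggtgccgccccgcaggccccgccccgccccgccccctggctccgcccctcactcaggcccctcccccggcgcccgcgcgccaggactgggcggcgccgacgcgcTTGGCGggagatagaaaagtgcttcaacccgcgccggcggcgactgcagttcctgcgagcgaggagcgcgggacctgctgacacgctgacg
RBL1: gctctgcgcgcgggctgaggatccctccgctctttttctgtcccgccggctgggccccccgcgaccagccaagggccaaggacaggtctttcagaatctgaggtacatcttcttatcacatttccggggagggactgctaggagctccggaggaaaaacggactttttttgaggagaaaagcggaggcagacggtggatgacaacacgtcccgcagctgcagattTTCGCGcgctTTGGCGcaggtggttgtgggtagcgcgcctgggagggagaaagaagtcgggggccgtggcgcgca
LIN52: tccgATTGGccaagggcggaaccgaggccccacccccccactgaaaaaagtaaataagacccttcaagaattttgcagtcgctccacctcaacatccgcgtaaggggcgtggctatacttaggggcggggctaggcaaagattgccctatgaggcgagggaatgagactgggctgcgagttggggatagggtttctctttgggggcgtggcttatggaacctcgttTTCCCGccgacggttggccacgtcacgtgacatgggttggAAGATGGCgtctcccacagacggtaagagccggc

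The MYBL2 window held 1 match, TTGGCG from 41 bases before the start site. RBL1 held TTCGCG from 25 and TTGGCG from 15 bases before its start site. LIN52 held TTCCCG from 24 bases before its start site, a CCAAT box on the minus strand, and the YY1-type letters from 16 bases after it. E2F-type letters were found for 6 of the 9 members (MYBL2, LIN9, LIN52, LIN54, RBL1 and TFDP1), and 31.1% of all 35116 promoter windows held them. The other letters were found for fewer members, with 4 of 9 for the cell cycle homology region (16.4% of all windows), 3 of 9 for CCAAT (34.6%) and 2 of 9, LIN52 and LIN9, for the YY1-type letters (2.89%). Several members have more than 1 window and were counted once, so these shares are not on the same footing. A match to short letters is a description and does not show binding.

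The levels of the members in control cells were compared per kilobase of exons. MYBL2 (a MYB family activator) and TFDP1 (the E2F dimer partner) were the highest in ACHN shNC cells, at 46.1 ± 1.88 and 46.0 ± 2.42 CPM per kilobase (SD, n = 3), and their ranges overlapped. FOXM1, a forkhead activator of mitotic genes, followed at 33.2 ± 0.101 and E2F4, the repressive E2F, at 29.5 ± 0.568 CPM per kilobase. RBL2 (8.64 ± 0.287 CPM per kilobase) stood above RBL1, LIN9, LIN52 and LIN54, which lay between 3.28 and 3.72 CPM per kilobase, each overlapping its neighbour in the order. LIN37, a subunit needed for repression by the complex, was lowest at 0.664 ± 0.0640 CPM per kilobase. It shares 54.0% of its exonic bases with other genes, where read pairs may be left out of its count, so this level may be too low. The order was the same in HK2 shNC cells, but there MYBL2 reached 200 ± 8.65 CPM per kilobase, far above TFDP1 at 47.2 ± 1.09, and only LIN52 and LIN54 overlapped.

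**Figure D1:**
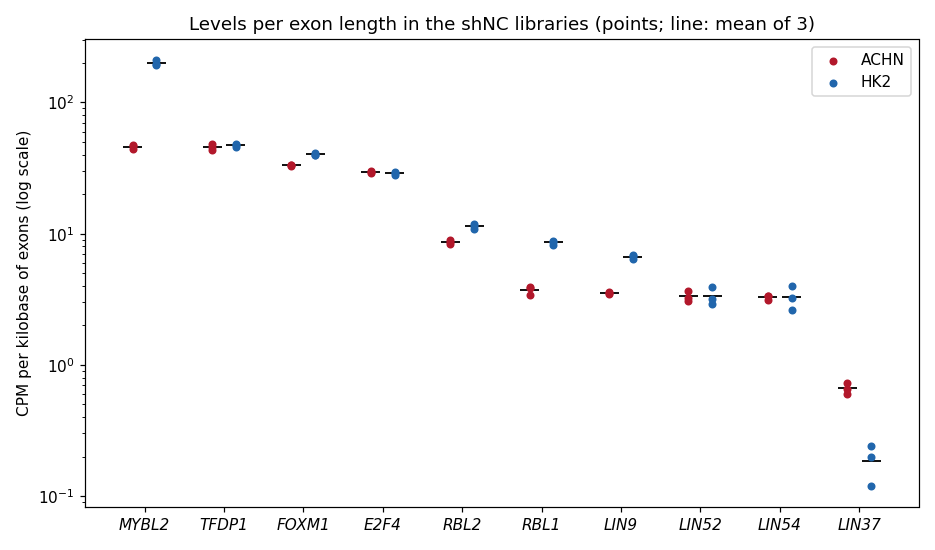
Level of each of the 10 genes per kilobase of exons (log axis) in the 3 ACHN (red) and 3 HK2 (blue) shNC libraries, with the mean of each group as a line. MYBL2 lies at 46.1 in ACHN and 200 CPM per kilobase in HK2 cells. LIN37, which shares 54.0% of its exonic bases with other genes, is the lowest by this measure in both lines.

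Between the control groups, 5 members were lower in ACHN than in HK2 cells and 1 was higher, at an adjusted p-value under 0.05 (edgeR's quasi-likelihood test, Benjamini-Hochberg over all genes tested). Of all genes tested, 38.0% were lower and 38.6% higher. MYBL2 was 4.23-fold lower in ACHN cells (log2 difference -2.08, standard error 0.039, adjusted p = 2.65e-26, edgeR), with 122 to 132 CPM in ACHN and 538 to 583 CPM in HK2 libraries. RBL1 was 2.25-fold lower (20.2 to 23.3 against 49.1 to 52.7 CPM), and LIN9 was 1.84-fold lower. RBL2 and FOXM1 differed less, by log2 differences of -0.36 and -0.25. LIN37 was higher in ACHN cells (log2 difference 1.86), with 32 to 40 read pairs per library in ACHN against 6 to 13 in HK2 cells. The differences for LIN52 (0.037, 95% interval -0.21 to 0.29), LIN54 (0.035, -0.18 to 0.25), E2F4 (0.072, -0.015 to 0.16) and TFDP1 (0.00032, -0.082 to 0.083) did not pass the test.

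FOXM1 rose with each single knockdown in ACHN cells and fell below the control with the double knockdown. Its levels were 162, 163 and 162 CPM in ACHN shNC, 215, 211 and 217 CPM in shKDM5C, 210, 215 and 215 CPM in shYY1, and 110, 113 and 110 CPM in Dsh libraries. The shKDM5C and shYY1 libraries overlapped each other, all of them lay above the shNC libraries, and all Dsh libraries lay below. Against shNC, the log2 fold change was 0.39 (standard error 0.032, adjusted p = 1.24e-10) in shKDM5C and 0.37 (standard error 0.031, adjusted p = 2.94e-12) in shYY1 cells by edgeR's test. In Dsh cells it was -0.55 (standard error 0.044, adjusted p = 2.73e-09, edgeR), a 1.46-fold lower level, and FOXM1 was 1.92-fold lower in Dsh cells than in either single knockdown. FOXM1 overlaps ITFG2 on the opposite strand over 15.9% of its exonic bases, and strand was not used in the counting. ITFG2 was at 18.4 CPM in ACHN shNC and 20.8 CPM in Dsh cells (adjusted p = 0.0932, edgeR), and its share in the FOXM1 counts was not tested.

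MYBL2 showed the same order of groups in ACHN cells. The levels were 132, 122 and 130 CPM in shNC, 174, 168 and 170 CPM in shKDM5C, 154, 132 and 157 CPM in shYY1, and 63.4, 60.9 and 66.0 CPM in Dsh libraries. The lowest shYY1 library lay just above the highest shNC library, and the Dsh libraries stood clear of all others. The log2 fold changes against shNC were 0.41 (standard error 0.037, adjusted p = 5.43e-10, edgeR) in shKDM5C, 0.19 (standard error 0.044, adjusted p = 0.000621) in shYY1 and -1.01 (standard error 0.051, adjusted p = 4.12e-12) in Dsh cells. MYBL2 was thus 2.02-fold lower in Dsh than in shNC cells, 2.68-fold lower than in shKDM5C and 2.33-fold lower than in shYY1 cells. The ratio of MYBL2 to FOXM1, per kilobase, was 1.39 ± 0.0597 in shNC and 1.01 ± 0.0522 in Dsh libraries (SD, n = 3), without overlap.

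In HK2 cells the RNA levels of both activators fell with the double knockdown and neither rose with a single one. FOXM1 was at 196, 196 and 203 CPM in shNC, 201, 196 and 208 CPM in shKDM5C, 175, 171 and 173 CPM in shYY1, and 145, 141 and 130 CPM in Dsh libraries. The shKDM5C libraries overlapped shNC, and the shYY1 and Dsh libraries lay below it. The log2 fold changes were 0.03 (95% interval -0.20 to 0.26) in shKDM5C, or 0.027 (-0.067 to 0.12) without replicate 1, -0.19 (standard error 0.048, adjusted p = 0.00357, edgeR) in shYY1 and -0.51 (standard error 0.049, adjusted p = 3.17e-10) in Dsh cells. ITFG2 fell as well in HK2 Dsh cells, from 27.5 to 17.0 CPM (adjusted p = 6.13e-07, edgeR). MYBL2 was at 546, 538 and 583 CPM in shNC, 460, 468 and 473 CPM in shKDM5C, 542, 530 and 554 CPM in shYY1, and 304, 298 and 324 CPM in Dsh libraries. Its log2 fold change in Dsh cells was -0.84 (standard error 0.043, adjusted p = 1.31e-16, edgeR), a 1.79-fold lower level, and that in shYY1 cells was -0.04 (95% interval -0.13 to 0.057). All shKDM5C libraries lay below the shNC libraries, with a change of -0.25 on the log2 scale (adjusted p = 0.294, edgeR) over all libraries and -0.24 (adjusted p = 5.20e-05) without replicate 1.

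**Figure D2:**
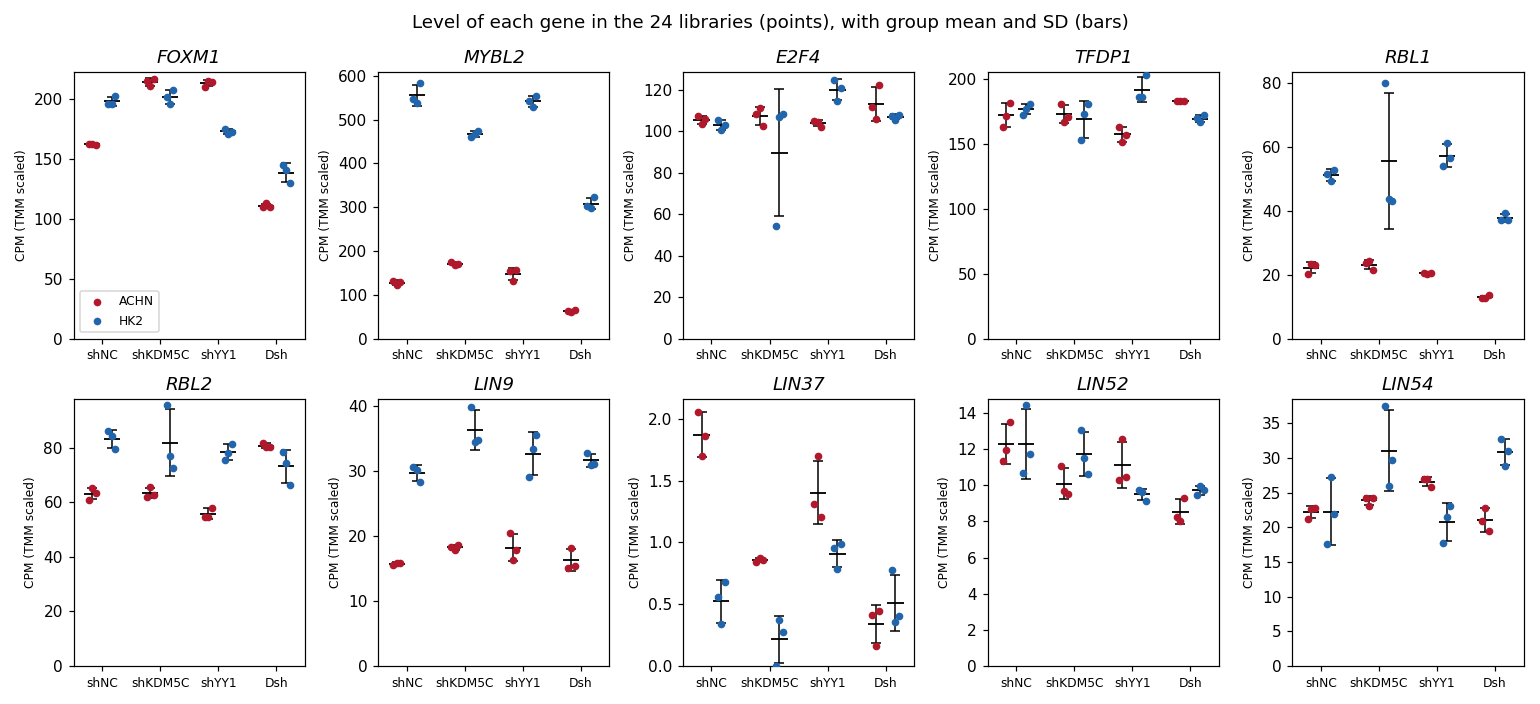
CPM of each gene in the 24 libraries (points) by group, ACHN in red and HK2 in blue, with the mean and SD of 3 libraries as black bars and every axis starting at 0. FOXM1 and MYBL2 of ACHN cells are highest in the single knockdowns and lowest in Dsh cells, and 1 HK2 shKDM5C library stands apart in E2F4 and RBL1.

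The RNA levels of the pocket proteins moved in opposite directions in ACHN Dsh cells. RBL1, whose gene is an E2F target, was at 20.2, 23.3 and 22.9 CPM in ACHN shNC, 23.7, 24.1 and 21.4 CPM in shKDM5C, 20.5, 20.3 and 20.4 CPM in shYY1, and 12.7, 12.7 and 13.5 CPM in Dsh libraries. Only the Dsh libraries stood clear of the shNC range. The log2 fold change of RBL1 was -0.77 (standard error 0.090, adjusted p = 5.26e-07, edgeR) in Dsh cells, while those in shKDM5C (0.056, 95% interval -0.099 to 0.21) and shYY1 (-0.14, -0.28 to 0.0085) did not pass. RBL2, the pocket protein that prevails in resting cells, was at 61.0, 65.2 and 63.6 CPM in shNC, 62.2, 65.7 and 62.8 CPM in shKDM5C, 54.8, 54.8 and 58.1 CPM in shYY1, and 82.0, 80.3 and 80.3 CPM in Dsh libraries. The shYY1 libraries lay below the control range and the Dsh libraries above it. The log2 fold changes of RBL2 were -0.20 (standard error 0.047, adjusted p = 0.000651) in shYY1 and 0.35 (standard error 0.051, adjusted p = 7.39e-06) in Dsh cells by edgeR's test. The ratio of RBL2 to RBL1, per kilobase, went from 2.26 to 2.45 in shNC to between 4.85 and 5.23 in Dsh libraries, while it was 2.13 to 2.38 in shKDM5C and 2.17 to 2.32 in shYY1 libraries. AKTIP, which overlaps 8.33% of the exonic bases of RBL2 on the opposite strand, rose in ACHN Dsh cells (log2 fold change 0.36 with adjusted p = 0.0030, edgeR).

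In HK2 cells the RNA levels of both pocket proteins were lower after the double knockdown. RBL1 was at 51.5, 49.1 and 52.7 CPM in shNC and 37.1, 39.3 and 36.9 CPM in Dsh libraries, without overlap, and its log2 fold change was -0.43 (standard error 0.070, adjusted p = 5.54e-06, edgeR). In shKDM5C libraries RBL1 was at 80.0, 43.5 and 43.1 CPM, so that replicate 1 lay above and the others below the control range. The log2 fold change was 0.13 (95% interval -0.47 to 0.72) over all 3 libraries and -0.24 (adjusted p = 0.0167, edgeR) without replicate 1. In shYY1 cells RBL1 was at 54.0, 61.2 and 56.5 CPM, all above shNC, with a log2 fold change of 0.16 that missed the threshold (adjusted p = 0.0726, edgeR). RBL2 was at 86.2, 84.3 and 79.7 CPM in shNC, 75.6, 78.3 and 81.5 CPM in shYY1, and 78.6, 74.5 and 66.5 CPM in Dsh libraries. Its log2 fold change in Dsh cells was -0.18 (standard error 0.062, adjusted p = 0.0163, edgeR), and the call was lost without shNC replicate 1 (adjusted p = 0.0733) or without Dsh replicate 3 (adjusted p = 0.154). AKTIP rose there too, from 8.94 to 14.9 CPM (adjusted p = 5.30e-05, edgeR), and its share in the RBL2 counts was not tested. The ratio of RBL2 to RBL1 per kilobase was 1.33 ± 0.0871 in shNC and 1.58 ± 0.132 in Dsh libraries (SD, n = 3).

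E2F4 and TFDP1, the DNA-binding pair of the complex, varied little. In ACHN cells E2F4 was at 107, 103 and 106 CPM in shNC and 112, 106 and 122 CPM in Dsh libraries, which overlapped, and its log2 fold change was 0.10 (95% interval -0.011 to 0.21). TFDP1 was at 163, 172 and 181 CPM in shNC, 163, 152 and 157 CPM in shYY1, and 183, 183 and 183 CPM in Dsh libraries of ACHN cells. It was lower in shYY1 cells (-0.15 ± 0.037 on the log2 scale, SE, with adjusted p = 0.000935 by edgeR), and the change in Dsh cells of 0.09 did not pass (95% interval -0.0097 to 0.19). In HK2 cells E2F4 was higher in shYY1 libraries, at 125, 115 and 121 CPM against 106, 101 and 103 CPM in shNC (0.22 ± 0.055 on the log2 scale, SE, with adjusted p = 0.00376 by edgeR), and TFDP1 was at 186, 186 and 203 CPM against 172, 177 and 181 CPM (0.12, adjusted p = 0.0884). In HK2 Dsh cells neither passed the test, with log2 fold changes of 0.060 (95% interval -0.043 to 0.16) for E2F4 and -0.054 (-0.15 to 0.039) for TFDP1. E2F4 was at 54.1 CPM in replicate 1 of HK2 shKDM5C and at 107 and 108 CPM in the others.

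Of the MuvB core, LIN52 was lower in Dsh cells of both lines. LIN52, the subunit whose phosphorylation by DYRK1A joins the core to the pocket protein, was at 11.4, 11.9 and 13.5 CPM in ACHN shNC, 11.1, 9.68 and 9.54 CPM in shKDM5C, 10.3, 12.6 and 10.5 CPM in shYY1, and 8.26, 8.02 and 9.32 CPM in Dsh libraries. The shKDM5C and Dsh libraries lay below the shNC range. The log2 fold changes were -0.29 (standard error 0.10, adjusted p = 0.0205, edgeR) in shKDM5C, a call that was lost without shNC replicate 3, shKDM5C replicate 2 or shKDM5C replicate 3 (adjusted p up to 0.129), and -0.52 (standard error 0.11, adjusted p = 0.000584) in Dsh cells. In HK2 cells LIN52 was at 10.7, 14.4 and 11.7 CPM in shNC, 9.73, 9.64 and 9.13 CPM in shYY1, and 9.46, 9.96 and 9.76 CPM in Dsh libraries, with no overlap of shNC with either. The log2 fold changes were -0.37 (adjusted p = 0.0456, edgeR) in shYY1 and -0.33 (adjusted p = 0.0473) in Dsh cells. Each of these calls was lost in 5 of 6 fits that left out 1 library, with adjusted p-values up to 0.247 and 0.291, both reached without shNC replicate 2.

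LIN37 was counted with few read pairs, which limits what can be said of it. In ACHN cells it had 40, 32 and 35 read pairs in shNC, 16, 16 and 16 in shKDM5C, 25, 32 and 22 in shYY1, and 8, 3 and 11 in Dsh libraries. The shKDM5C and Dsh libraries lay below all shNC and shYY1 libraries. Its log2 fold change was -1.13 (standard error 0.28, adjusted p = 0.00115, edgeR) in shKDM5C and -2.41 (standard error 0.37, adjusted p = 1.38e-05) in Dsh cells, and that in shYY1 cells was -0.43 (95% interval -0.96 to 0.091). In HK2 cells it had 10, 6 and 13 read pairs in shNC, 0, 7 and 5 in shKDM5C, 16, 13 and 17 in shYY1, and 13, 6 and 7 in Dsh libraries. It failed the filter on low counts in the comparisons of shKDM5C and Dsh with shNC and of Dsh with shKDM5C, and a change there was not detectable at this depth. LIN37 shares 54.0% of its exonic bases with other genes, 26.7% with ENSG00000188223 on its own strand and 41.8% with ENSG00000267439 on the opposite one. Read pairs in shared exons may be left out of a gene's count when they fit more than 1 gene.

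LIN9 was higher in ACHN shKDM5C cells, and LIN54 was higher in ACHN shYY1 and in HK2 Dsh cells. LIN9, a scaffold subunit, was at 15.5, 15.8 and 15.8 CPM in ACHN shNC, 18.3, 17.8 and 18.6 CPM in shKDM5C, and 15.1, 18.2 and 15.4 CPM in Dsh libraries. It was higher in shKDM5C cells (0.21 ± 0.078 on the log2 scale, SE, with adjusted p = 0.0250 by edgeR), a call that was lost without shNC replicate 1 (adjusted p = 0.0630), shKDM5C replicate 1 (0.0504) or shKDM5C replicate 3 (0.0614). Its log2 fold changes in Dsh cells were 0.040 (95% interval -0.16 to 0.24) in ACHN and 0.096 (-0.070 to 0.26) in HK2 cells. LIN54, the DNA-binding subunit, was at 21.2, 22.6 and 22.8 CPM in ACHN shNC, 27.0, 26.9 and 25.8 CPM in shYY1, and 20.9, 22.8 and 19.4 CPM in Dsh libraries. Only the shYY1 libraries stood clear of the control range (0.24 ± 0.064 on the log2 scale, SE, with adjusted p = 0.00212 by edgeR). In HK2 cells LIN54 was at 17.6, 27.2 and 21.9 CPM in shNC and 32.7, 28.9 and 31.0 CPM in Dsh libraries, all above the controls (0.48 ± 0.11 on the log2 scale, SE, with adjusted p = 0.000471 by edgeR). The HK2 shKDM5C libraries, at 37.5, 25.9 and 29.8 CPM, overlapped the controls.

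In ACHN Dsh cells 5 of 10 members were lower (FOXM1, MYBL2, RBL1, LIN37 and LIN52) and 1 was higher (RBL2), where 32.0% of all genes tested were lower and 30.7% higher. The median log2 fold change was -0.30 over the members and -0.0057 over all genes. In ACHN shKDM5C cells 2 members were lower and 3 higher (background 27.7% and 28.9%), and in shYY1 cells also 2 were lower and 3 higher (24.5% and 24.2%). Compared with shKDM5C cells, 4 members were lower and 1 higher in Dsh cells (background 30.9% and 31.6%), and compared with shYY1 cells 6 were lower and 3 higher (32.7% and 32.0%). Of these calls, LIN37 against shKDM5C was lost without Dsh replicate 2 (adjusted p = 0.0628, edgeR), LIN52 against shYY1 without shYY1 replicate 2 (0.0728), and E2F4 against shYY1 without any 1 shYY1 library or without Dsh replicate 3 (up to 0.234). At the threshold of the study (a log2 fold change of 1.5 or more in either direction, with p under 0.05 before adjustment) LIN37 in Dsh cells was the only member called against shNC. Here and below it was applied to edgeR's p-values, whereas the study used DESeq2, so these are not the study's own calls. That threshold called 3.34% of genes in shKDM5C, 3.13% in shYY1 and 8.42% in Dsh cells.

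In HK2 Dsh cells 5 of 9 members tested were lower (FOXM1, MYBL2, RBL1, RBL2 and LIN52) and 1 was higher (LIN54), where 24.3% of all genes were lower and 25.5% higher. The median was -0.18 over the members and -0.0026 over all genes. No member of 9 was called in HK2 shKDM5C cells by edgeR (background 0.656% lower and 0.668% higher). MYBL2 alone passed 0.05 there before adjustment, and DESeq2 called 0 members. Without replicate 1, MYBL2 and RBL1 of 10 members were lower, with 10.9% and 11.5% of all genes called. In HK2 shYY1 cells 2 of 10 were lower and 1 higher (background 14.7% and 14.3%). Compared with shYY1 cells, 5 members were lower and 1 higher in Dsh cells (background 22.9% and 24.8%), of which E2F4 lost its call without shYY1 replicate 1, Dsh replicate 1 or Dsh replicate 2 (adjusted p up to 0.0661, edgeR) and TFDP1 without shYY1 replicate 3 (0.0652). Compared with shKDM5C cells, FOXM1 and MYBL2 were lower and none of 9 was higher (5.59% and 6.26%), and without replicate 1 RBL1 joined them (21.0% and 22.2%). The call of FOXM1 in that comparison was lost in each of the 5 fits that left out shKDM5C replicate 2 or 3 or a Dsh library (adjusted p up to 0.142), and that of MYBL2 in each of the 4 fits that left out shKDM5C replicate 3 or a Dsh library (adjusted p = 0.0553 to 0.108, edgeR). The study's threshold called no member in HK2 cells, and 1.49% of genes in shKDM5C, 1.33% in shYY1 and 4.30% in Dsh cells. Of the members called in Dsh cells, FOXM1, MYBL2, RBL1 and LIN52 were lower in both lines, and RBL2 was called in opposite directions. LIN37 was called in ACHN only, where alone it was tested, and LIN54 in HK2 cells only. The HK2 calls of LIN52 and RBL2 were lost in 5 and 2 of 6 fits that left out 1 library. The share of all genes called in both lines was not computed, so this overlap has no background beside it.

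**Figure D3:**
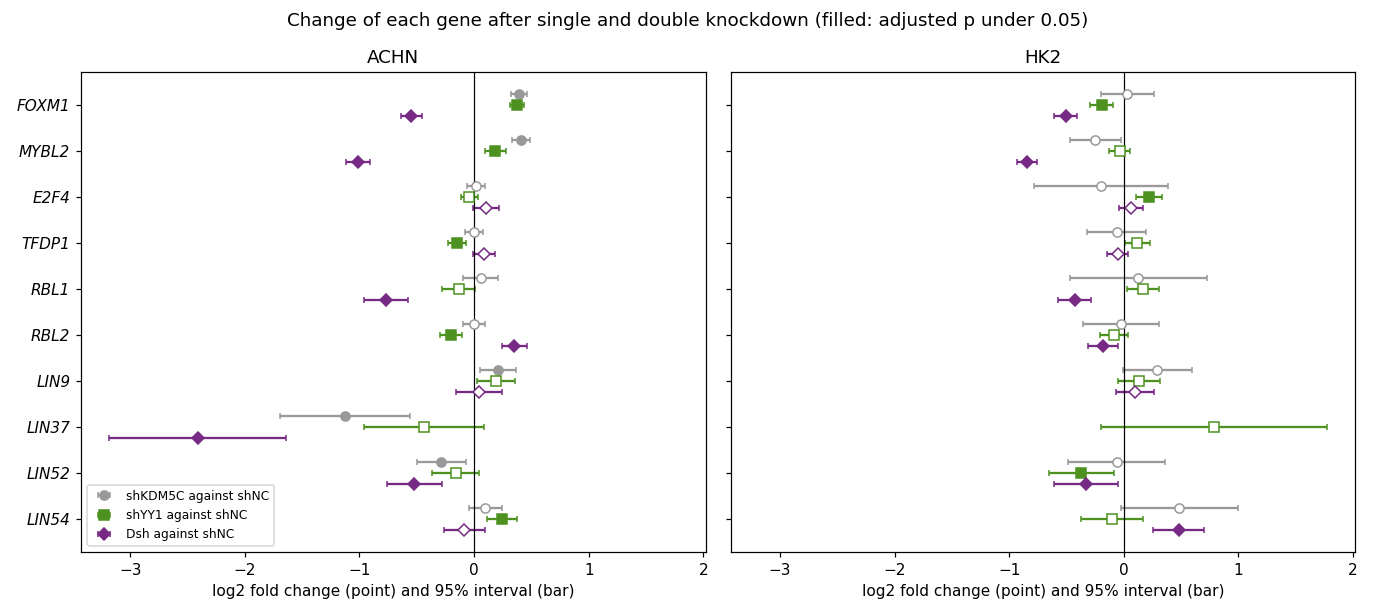
Log2 fold change against shNC (points) with 95% intervals (bars) for each gene after knockdown of KDM5C (grey circles), YY1 (green squares) or both (purple diamonds), filled where the adjusted p-value is under 0.05. FOXM1 and MYBL2 lie right of 0 in single and left of 0 in double knockdown of ACHN cells, at -0.55 and -1.01 in Dsh cells.

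Whether the double knockdown differed from the sum of the single ones was tested on all 12 libraries of a line, as the log2 effect of Dsh minus the sum of the effects of shKDM5C and shYY1. In ACHN cells 5 members lay below the sum and 2 above it, against a background of 28.8% and 26.8% of genes. FOXM1 lay below it (log2 difference -1.34, standard error 0.051, adjusted p = 3.65e-17, edgeR) and so did MYBL2 (log2 difference -1.64, standard error 0.074, adjusted p = 1.37e-15). RBL1 (-0.71), LIN54 (-0.45) and LIN9 (-0.38) also lay below, and RBL2 (0.53) and TFDP1 (0.22) above, whereas LIN37, LIN52 and E2F4 did not pass. The call of LIN9 was lost without shYY1 replicate 1 (adjusted p = 0.0595, edgeR). In HK2 cells only MYBL2 was called (log2 difference -0.56, standard error 0.10, adjusted p = 0.00489, edgeR), with a background of 4.40% lower and 5.21% higher. Without HK2 shKDM5C replicate 1, 4 members lay below the sum (MYBL2 at -0.56, RBL1 at -0.35, FOXM1 at -0.33 and E2F4 at -0.21) and none above, with a background of 13.7% and 15.0%. The single and double knockdowns share their shNC libraries, and this enters all 3 effects. YY1 was less depleted in Dsh than in shYY1 libraries of both lines, which the test does not take into account.

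**Figure D4:**
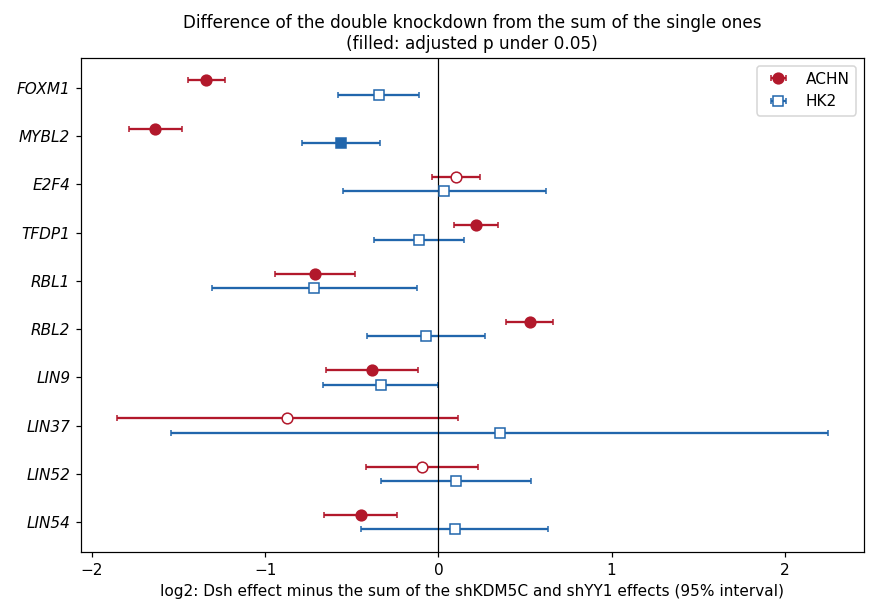
Log2 effect of Dsh minus the sum of the log2 effects of shKDM5C and shYY1 for each gene (point) with its 95% interval (bar), ACHN as red circles and HK2 as blue squares, filled where the adjusted p-value is under 0.05. FOXM1 and MYBL2 of ACHN cells lie furthest below 0, at -1.34 and -1.64, and in HK2 cells only MYBL2 is filled.

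The effects were then compared between the lines in 1 fit. Relative to shNC, KDM5C and YY1 were reduced further in HK2 than in ACHN cells, which the test does not take into account. The shKDM5C effect was higher in ACHN than in HK2 cells for FOXM1 (log2 difference 0.37, adjusted p = 0.0182, edgeR) and MYBL2 (0.67, adjusted p = 0.000811) and lower for no member, against a background of 6.18% lower and 5.74% higher. The call of FOXM1 was lost without any 1 ACHN shNC library, ACHN shKDM5C replicate 1 or 3, or HK2 shNC replicate 3 (adjusted p up to 0.0539, edgeR). Without HK2 shKDM5C replicate 1 the differences were 0.37 and 0.66, and RBL1 was added (0.30, adjusted p = 0.0257, edgeR), against 15.4% and 18.6%. The shYY1 effect was higher in ACHN cells for FOXM1 (0.58, adjusted p = 6.14e-10, edgeR) and MYBL2 (0.23) and lower for E2F4, TFDP1 and RBL1 (-0.25, -0.25 and -0.29), against 16.5% lower and 16.6% higher. The call of RBL1 was lost in 7 of 12 fits that left out 1 library, at the highest adjusted p of 0.0934 without ACHN shNC replicate 2 (edgeR). The Dsh effect differed for RBL2, which was higher in ACHN relative to HK2 cells by 0.55 (adjusted p = 2.51e-06, edgeR), for TFDP1 (0.16), and for LIN37, LIN54 and RBL1, which were lower (-2.36, -0.54 and -0.32), against 22.7% lower and 23.3% higher. LIN37 passed the filter on low counts in this fit, where ACHN shNC libraries had 32 to 40 read pairs. It failed the filter in HK2 Dsh against shNC, with 6 to 13 read pairs per library, so its HK2 effect was not tested on its own. The call of TFDP1 was lost in 9 of 12 such fits, at the highest adjusted p of 0.324 without ACHN shNC replicate 1 (edgeR). For FOXM1 the Dsh effect differed between the lines by -0.024 (95% interval -0.16 to 0.11) and for MYBL2 by -0.15 (-0.29 to -0.014, adjusted p = 0.0676, edgeR), neither of which passed. The MYBL2 difference was called in 4 of 7 other settings and in 4 of 12 fits that left out 1 library.

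Among genes that work with the complex, RBBP4 (the histone-binding subunit of the MuvB core) was lower in Dsh cells of both lines, by log2 fold changes of -0.23 in ACHN and -0.14 in HK2 cells (adjusted p = 0.000152 and 0.0125, edgeR). In ACHN cells RBBP4 was at 170 CPM in shNC, 167 in shKDM5C, 144 in shYY1 and 145 CPM in Dsh cells. In HK2 cells it was at 204, 260, 247 and 185 CPM in the same order. The HK2 shKDM5C means given here include replicate 1. TFDP2, an alternative partner of E2F4, was higher in both (0.54 and 0.19, adjusted p = 2.76e-07 and 0.00275, edgeR), and E2F5, the other repressive E2F of the complex, was higher in ACHN (0.63, adjusted p = 2.34e-05) and at 0.19 in HK2 cells (adjusted p = 0.183). In the same order of groups, TFDP2 was at 41.9, 36.2, 56.5 and 61.2 CPM in ACHN and 102, 128, 128 and 116 CPM in HK2 cells. E2F5 was at 9.23, 10.6, 11.7 and 14.3 CPM in ACHN cells. Of these 3 genes, 0 were lower and 1 was higher in ACHN Dsh than in ACHN shYY1 cells (background 32.7% and 32.0%). CDKN1A rose in ACHN cells from 133 ± 5.48 CPM in shNC to 220 ± 2.52 in shKDM5C, 275 ± 8.47 in shYY1 and 631 ± 41.1 CPM in Dsh cells (SD, n = 3), which is 2.25 on the log2 scale in the last (adjusted p = 7.88e-17, edgeR). In HK2 cells it rose from 50.2 ± 2.62 to 148 ± 4.35 CPM in Dsh cells (1.56, adjusted p = 1.89e-20, edgeR), was at 57.0 CPM in shYY1 cells (0.18, adjusted p = 0.0440) and at 28.7 ± 10.9 CPM in shKDM5C cells. The last had a change of -0.80 on the log2 scale (adjusted p = 0.260, edgeR) with all libraries and -0.52 (adjusted p = 1.36e-05) without replicate 1. DYRK1A was higher in ACHN Dsh cells (0.31, adjusted p = 0.000173, edgeR) and at -0.05 in HK2 Dsh cells (adjusted p = 0.530). In ACHN cells DYRK1A was at 51.5 CPM in shNC, 58.9 in shKDM5C, 43.9 in shYY1 and 63.9 CPM in Dsh cells. The kinase genes CDK6 and CDK4 and the cyclin gene CCND1, whose products act against the pocket proteins, had log2 fold changes of 0.77, -0.06 and 0.99 in ACHN Dsh and 0.37, 0.24 and -0.06 in HK2 Dsh cells, all past the threshold except CDK4 in ACHN and CCND1 in HK2 cells. Single knockdowns moved these genes as well. In the order shNC, shKDM5C, shYY1 and Dsh, CCND1 was at 148, 248, 214 and 294 CPM in ACHN cells. CDK6 was at 246, 201, 324 and 421 CPM in ACHN and 241, 417, 202 and 310 CPM in HK2 cells. CDK4 was at 176, 170, 215 and 207 CPM in HK2 cells.

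The genes that MYBL2, FOXM1 and the MuvB core act on were taken as a list of 27 G2/M genes, and genes that E2F acts on as a list of 23 G1/S genes. All were tested in every comparison. In ACHN cells 26 of the 27 G2/M genes were higher and 1, ECT2, lower in shKDM5C cells (median log2 fold change 0.60), where 28.9% of all genes were higher. In shYY1 cells 24 were higher and none lower (median 0.29), where 24.2% of all genes were higher. In Dsh cells 18 were lower, 1, TOP2A, was higher and 8 did not pass the test (median -0.28), where 32.0% of all genes were lower. In Dsh cells CKS2 (-1.04, adjusted p = 3.15e-09, edgeR) and CCNB2 (-0.68, adjusted p = 1.74e-08) were lowest, and KIF2C (-0.18) and TOP2A (0.25) were at the other end of the genes called. Compared with the sum of the single knockdowns, 26 lay below and 1, ECT2, above (background 28.8% and 26.8%), with a median of -1.28 against 0.012 over all genes. In HK2 cells the G2/M genes split. In Dsh cells 14 were lower, with CCNA2 (-0.87) and KIF20A (-0.84) lowest, and 7 higher, with NEK2 (0.56) and CDC25C (0.51) highest, at a median of -0.12 (background 24.3% lower and 25.5% higher). CKS2 and CCNB2 were among those higher in HK2 Dsh cells, at 0.42 and 0.18. In HK2 shKDM5C cells no G2/M gene was called by edgeR (background 0.656% lower and 0.668% higher). Without replicate 1 there were 1 lower and 4 higher (background 10.9% and 11.5%). In HK2 shYY1 cells 8 were lower and 1 higher (background 14.7% and 14.3%).

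Most G1/S genes were lower in Dsh cells of both lines. In ACHN Dsh cells 19 of 23 were lower and 2 higher (median -0.83, background 32.0% and 30.7%), with MCM6 (-1.63, adjusted p = 1.95e-15, edgeR) and CDC6 (-1.33) lowest and PCNA (0.19) and TYMS (0.16) higher. In HK2 Dsh cells 22 were lower and none higher (median -0.63, background 24.3% and 25.5%), with MCM4 (-1.02, adjusted p = 5.23e-19, edgeR) among the lowest and CDT1 (-0.20) and RRM2 (-0.17) nearest 0 among those called. In ACHN shKDM5C cells 6 were lower and 4 higher (background 27.7% and 28.9%). In ACHN shYY1 cells 14 were lower and 1 higher (background 24.5% and 24.2%). In HK2 shKDM5C cells none was called (background 0.656% and 0.668%), or 2 lower and 2 higher without replicate 1 (background 10.9% and 11.5%). In HK2 shYY1 cells 2 were lower and 2 higher (background 14.7% and 14.3%). These lists were drawn up with results of these data known and describe the members' surroundings only. In bulk RNA a lower level in each cell and fewer cells in a phase of the cycle cannot be told apart, which holds for every member too.

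**Figure D5:**
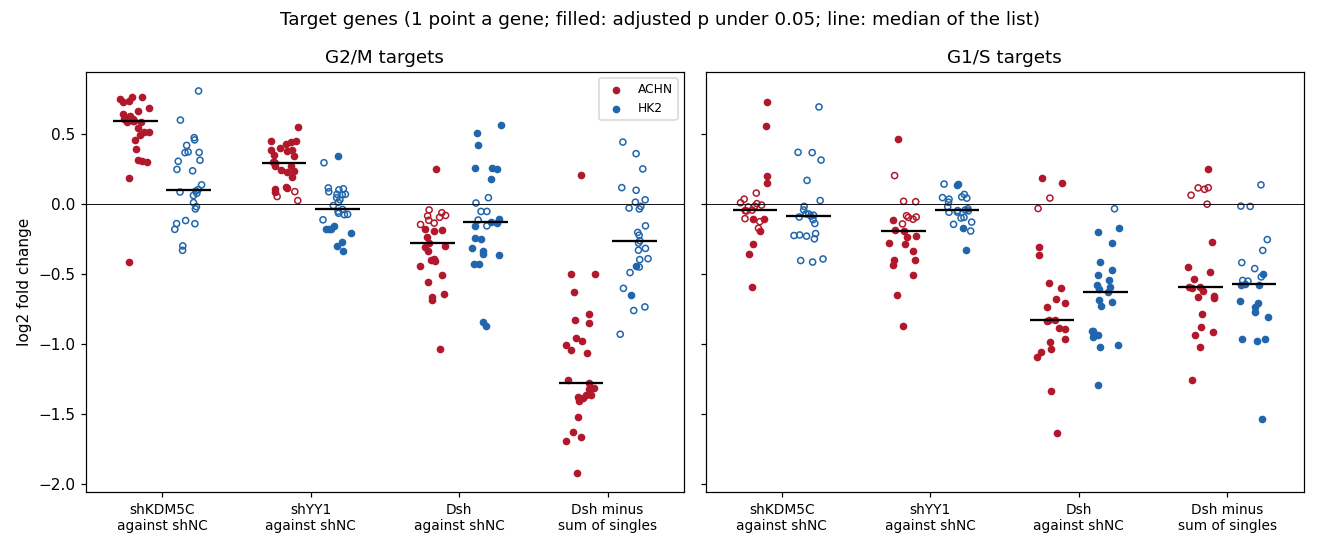
Log2 fold change of each G2/M gene (left, 27 genes) and G1/S gene (right, 23 genes) in 4 comparisons, ACHN in red and HK2 in blue, filled where the adjusted p-value is under 0.05, with the median of the list as a black line. The G2/M genes of ACHN cells have medians of 0.60, 0.29, -0.28 and -1.28, and the G1/S genes lie mostly below 0 in Dsh cells of both lines.

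The genes whose pattern over the knockdowns was most like that of FOXM1 and MYBL2 were sought among 8975 genes of at least 10 CPM. The measure was the root mean square difference of the log2 level relative to shNC over the 6 knockdown groups, with a pseudocount of 1 CPM. The means of HK2 shKDM5C include replicate 1. VAMP3 (a vesicle fusion protein), CENPI (a centromere protein), ARHGAP11A, AIMP2 and DAG1 were nearest to FOXM1, at differences of 0.107 to 0.134. With a pseudocount of 0.5 CPM, CENPI was nearest and DAG1 was no longer among the 5 nearest, whereas the 5 nearest to MYBL2 stayed the same. PRC1 was nearest to MYBL2, at 0.068. It organises the spindle midzone in dividing cells, and its log2 levels were 0.34, 0.31 and -1.01 in ACHN shKDM5C, shYY1 and Dsh cells and -0.17, -0.10 and -0.82 in the same groups of HK2 cells. PRR11, FABP5, RACGAP1 and HMGB3 followed at 0.122 to 0.148.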

How the data were processed

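RNA of 24 cell line libraries was sequenced as read pairs of a kit that was counted without strand. Per the labels and methods, the authors aligned reads to hg38 with HISAT2 2.0.5, and the deposited files hold raw read pair counts per gene for 60675 Ensembl 84 genes, written by featureCounts 2.0.1 per the file headers and by 1.5.0-p3 per the submitters' processing notes. Totals were 15926561 to 24272298 per library, which limits precision for genes such as LIN37.

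Counts were tested with edgeR 4.0.16 (R 4.3.3), by its quasi-likelihood F test after TMM scaling and removal of low genes with filterByExpr, fitting the groups compared (12 libraries for the test against the sum, and the libraries of both lines for differences between lines). Standard errors were derived from the F statistic, 95% intervals from the t distribution with the total degrees of freedom of the fit, and a call is a Benjamini-Hochberg adjusted p under 0.05 over all genes tested. Exact permutation of 3 against 3 libraries cannot give a p below 0.1 and was not used. DESeq2 1.42.0, other scalings, filters, samples and a replicate block were alternatives. The fits were also run on simulated data with the same spread for every gene, no outlying library and changes only in well-counted genes. Those data do not cover a gene as low as LIN37 or a library like HK2 shKDM5C replicate 1. The members, the lists and the tests were chosen with earlier results of these data known. Genes named besides the members are all of the short lists, the 2 lowest and 2 highest called genes of each target list in Dsh cells, and the 5 nearest patterns to FOXM1 and MYBL2. Some genes that this rule names are not reported here. ECT2, ITFG2 and AKTIP, and the values of CKS2 and CCNB2 in HK2 cells, were added after their values were seen.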

Additional observations from a re-analysis of the deposited data

Results flagged for a closer look

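In 12 results a knockdown effect differed between the lines by the test of the difference itself (edgeR, adjusted over all genes). Such differences were also common over all genes tested. The shKDM5C effect was lower in ACHN cells for 6.18% of all genes and higher for 5.74%. For the shYY1 effect the shares were 16.5% and 16.6%, and for the Dsh effect 22.7% and 23.3%. KDM5C and YY1 were reduced further, relative to shNC, in HK2 than in ACHN cells, which the test does not take into account. The shKDM5C effect was higher in ACHN than in HK2 cells for FOXM1 by 0.37 and for MYBL2 by 0.67 on the log2 scale. The call of FOXM1 was lost in 6 of 12 fits that left out 1 library, with adjusted p-values up to 0.0539, and that of MYBL2 in none.

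The shYY1 effect was higher in ACHN cells for FOXM1 by 0.58 and MYBL2 by 0.23, and differed by -0.25 for E2F4, -0.29 for RBL1 and -0.25 for TFDP1. The call of RBL1 was lost in 7 of 12 fits that left out 1 library. With all 24 libraries in the fit only that of FOXM1 remained among these members.

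The Dsh effect differed by -2.36 for LIN37, -0.54 for LIN54, -0.32 for RBL1, 0.55 for RBL2 and 0.16 for TFDP1. LIN37 had 6 to 13 read pairs in the HK2 shNC and Dsh libraries. It failed the filter on low counts in HK2 Dsh against shNC, so its HK2 effect was not tested on its own. The call of TFDP1 was lost in 9 of 12 fits that left out 1 library and in 4 of 7 other settings, and that of RBL1 with all 24 libraries (adjusted p = 0.246).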

How the results depend on the processing

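Of the member results recomputed under other settings, 1032 of 1099 kept their direction and their side of the threshold, 35 lost the call, 13 gained one and 19 changed sign, none of which was called under either setting. With 1 library left out, 1112 of 1242 were kept, 60 lost the call, 20 gained one and 50 changed sign, 3 of them called in either fit. The 6 member calls of ACHN Dsh against shNC held in all 13 refits, as did those of FOXM1 and MYBL2 in HK2 Dsh cells. The cause was not tested for any change named here. At the threshold of the study, the members called were 0 for ACHN shKDM5C against shNC (in place of 5), ACHN shYY1 against shNC (in place of 5), ACHN Dsh against shKDM5C (in place of 5), HK2 shYY1 against shNC (in place of 3), HK2 Dsh against shNC (in place of 6), HK2 Dsh against shKDM5C (in place of 2), HK2 Dsh against shYY1 (in place of 6), the test against the sum in HK2 cells (in place of 1), shKDM5C effect between lines (in place of 2) and shYY1 effect between lines (in place of 5). They were 1 for ACHN Dsh against shNC (in place of 6), ACHN Dsh against shYY1 (in place of 9), the test against the sum in ACHN cells (in place of 7) and Dsh effect between lines (in place of 5). They were 2 for shNC between lines (in place of 6). The share of all genes past this threshold was computed only for knockdown groups against shNC of the same line. The other counts at this threshold have no background beside them. With DESeq2, the members called numbered 3 (5 before) in ACHN shKDM5C against shNC and 2 (1 before) in the test against the sum in HK2 cells. With DESeq2, the genes called lower numbered 380 (106 before) in HK2 shKDM5C against shNC and 1539 (896 before) in HK2 Dsh against shKDM5C. With DESeq2, the genes called higher numbered 427 (108 before) in HK2 shKDM5C against shNC and 1585 (1005 before) in HK2 Dsh against shKDM5C. Without a filter on low counts, the members called numbered 2 (1 before) in the test against the sum in HK2 cells and 1 (2 before) in shKDM5C effect between lines. Without a filter on low counts, the genes called lower numbered 198 (106 before) in HK2 shKDM5C against shNC. Without a filter on low counts, the genes called higher numbered 207 (108 before) in HK2 shKDM5C against shNC and 1369 (890 before) in the test against the sum in HK2 cells. Without a filter on low counts, the log2 value changed sign for RBL2 to 0.016 in ACHN shKDM5C against shNC, TFDP1 to 0.014 in ACHN shKDM5C against shNC and LIN54 to 0.026 in HK2 Dsh against shKDM5C. With all 4 groups of a line in the fit, the members called numbered 0 (3 before) in HK2 shYY1 against shNC and 2 (6 before) in HK2 Dsh against shNC. With all 4 groups of a line in the fit, the genes called lower numbered 592 (106 before) in HK2 shKDM5C against shNC, 557 (2366 before) in HK2 shYY1 against shNC, 1922 (3945 before) in HK2 Dsh against shNC, 2435 (896 before) in HK2 Dsh against shKDM5C and 1776 (3653 before) in HK2 Dsh against shYY1. With all 4 groups of a line in the fit, the genes called higher numbered 748 (108 before) in HK2 shKDM5C against shNC, 370 (2305 before) in HK2 shYY1 against shNC, 1992 (4128 before) in HK2 Dsh against shNC, 2212 (1005 before) in HK2 Dsh against shKDM5C and 1989 (3956 before) in HK2 Dsh against shYY1. With all 4 groups of a line in the fit, the log2 value changed sign for RBL2 to 0.0069 in ACHN shKDM5C against shNC and TFDP1 to 0.0047 in ACHN shKDM5C against shNC. With all 24 libraries in the fit, the members called numbered 3 (1 before) in the test against the sum in HK2 cells, 1 (5 before) in shYY1 effect between lines and 3 (5 before) in Dsh effect between lines. With all 24 libraries in the fit, the genes called lower numbered 1825 (752 before) in the test against the sum in HK2 cells, 1906 (1109 before) in shKDM5C effect between lines and 1308 (2978 before) in shYY1 effect between lines. With all 24 libraries in the fit, the genes called higher numbered 2926 (4625 before) in the test against the sum in ACHN cells, 1871 (890 before) in the test against the sum in HK2 cells, 2073 (1031 before) in shKDM5C effect between lines, 1437 (2991 before) in shYY1 effect between lines and 2681 (4220 before) in Dsh effect between lines. With all 24 libraries in the fit, the log2 value changed sign for TFDP1 to -0.0074 in shNC between lines. With total counts in place of TMM, the log2 value changed sign for E2F4 to -0.028 in ACHN shKDM5C against shNC, LIN52 to 0.00031 in the test against the sum in ACHN cells, FOXM1 to -0.056 in HK2 shKDM5C against shNC, LIN54 to 0.058 in HK2 Dsh against shKDM5C, RBL2 to 0.028 in the test against the sum in HK2 cells, LIN52 to -0.021 in shNC between lines, LIN54 to -0.022 in shNC between lines, TFDP1 to -0.057 in shNC between lines, RBL1 to 0.0040 in shKDM5C effect between lines and FOXM1 to 0.0051 in Dsh effect between lines. With at least 10 counts in every library of a group, the log2 value changed sign for TFDP1 to -0.0027 in shNC between lines. In a fit of the 4 HK2 groups without shKDM5C replicate 1, an alternative chosen after seeing the data, 6 members were called in Dsh against shNC, 3 in shYY1 against shNC and 6 in Dsh against shYY1, as many as in the fits of 2 groups.

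Over the fits that each left out 1 library, the members called ranged over 3 to 5 in ACHN shKDM5C against shNC, 0 to 2 in HK2 shKDM5C against shNC, 0 to 3 in HK2 Dsh against shKDM5C, 1 to 4 in the test against the sum in HK2 cells and 1 to 3 in shKDM5C effect between lines. Over the fits that each left out 1 library, the genes called lower ranged over 0 to 1808 in HK2 shKDM5C against shNC, 143 to 3501 in HK2 Dsh against shKDM5C, 394 to 2415 in the test against the sum in HK2 cells and 683 to 2852 in shKDM5C effect between lines. Over the fits that each left out 1 library, the genes called higher ranged over 0 to 1910 in HK2 shKDM5C against shNC, 240 to 3696 in HK2 Dsh against shKDM5C, 541 to 2650 in the test against the sum in HK2 cells and 576 to 3437 in shKDM5C effect between lines. In HK2 shKDM5C comparisons the highest counts of genes and members came without shKDM5C replicate 1. For ACHN shKDM5C against shNC, values on the log2 scale were -0.0079 to 0.052 for E2F4, -0.0030 to 0.11 for RBL1, -0.024 to 0.022 for RBL2 and -0.036 to 0.038 for TFDP1. In ACHN Dsh against shNC, the log2 values ran from -0.036 to 0.092 for LIN9. For HK2 shKDM5C against shNC, values on the log2 scale were -0.16 to 0.071 for LIN52, -0.35 to 0.058 for E2F4, -0.24 to 0.28 for RBL1, -0.16 to 0.057 for RBL2 and -0.11 to 0.0013 for TFDP1. In HK2 shYY1 against shNC, the log2 values ran from -0.24 to 0.068 for LIN54. For HK2 Dsh against shKDM5C, values on the log2 scale were -0.12 to 0.15 for LIN54, -0.0012 to 0.42 for E2F4 and -0.059 to 0.059 for TFDP1. In HK2 Dsh against shYY1, the log2 values ran from -0.12 to 0.022 for LIN9. For the test against the sum in HK2 cells, values on the log2 scale were -0.12 to 0.93 for LIN37, -0.029 to 0.20 for LIN52, -0.076 to 0.26 for LIN54, -0.21 to 0.19 for E2F4 and -0.15 to 0.069 for RBL2. In shNC between lines, the log2 values ran from -0.058 to 0.16 for LIN52, -0.11 to 0.20 for LIN54 and -0.029 to 0.049 for TFDP1. For shKDM5C effect between lines, values on the log2 scale were -0.42 to 0.63 for LIN37, -0.035 to 0.39 for E2F4, -0.19 to 0.30 for RBL1 and -0.025 to 0.16 for RBL2. In shYY1 effect between lines, the log2 values ran from -0.024 to 0.14 for LIN9. For Dsh effect between lines, values on the log2 scale were -0.076 to 0.0025 for FOXM1, -0.13 to 0.012 for LIN9 and -0.0064 to 0.098 for E2F4.

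The labels number the libraries alike in all groups, so each fit was repeated with the replicate number as a block. Libraries of the same number did not deviate together, with correlations of -0.063 to 0.064 in ACHN and -0.22 to 0.090 in HK2 cells over 18 pairs each, and the numbers were not taken to pair the libraries. With the block, 152 of 157 member results kept direction and side of the threshold, 2 lost the call, 1 gained one and 2 changed sign. FOXM1 and MYBL2 lost theirs in HK2 Dsh against shKDM5C, where members called went from 2 to 0, genes lower from 896 to 324 and genes higher from 1005 to 473. In HK2 shKDM5C against shNC, genes lower went from 106 to 0 and genes higher from 108 to 0 under the block. The signs that changed with the block were those of LIN54 in HK2 Dsh against shKDM5C (0.0081) and TFDP1 in shNC between lines (-0.00012).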
